A study of Mus musculus with 6 samples.

Results

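Complement genes were followed in lacrimal glands, the exocrine glands that make the watery part of tears, of mice lacking ectodysplasin A. The members were 9 named genes among the 50686 of the count table: C1qa, C1qb, C1qc, C1ra, C1s1, C2, C4b, C3 and Cfb. They were taken by symbol, and all of them were found. Glands of 3 Eda-/- mice (titled Tabby) were set against those of 3 wild-type mice (titled Blacky). Every mouse was labelled C57BL/6 and was 13 weeks old, and each library is 1 biological replicate of total RNA after ribosomal RNA removal. Eda encodes a TNF family ligand for the development of hair, teeth and glands, and Tabby is the old name of mice with Eda mutations. The sources used here do not give the allele, the sex or whether mutants and wild-types were littermates.

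Complement is a cascade of blood and tissue proteins that marks surfaces for removal. In the classical pathway C1q, built of A, B and C chains, binds antibody or other targets and switches on the proteases C1r and C1s, which cut C4 and C2 into an enzyme that cuts C3. In the alternative pathway factor B, encoded by Cfb, joins C3 fragments and is cut by factor D to make another C3-cutting enzyme. The liver makes most circulating complement, whereas C1q comes largely from macrophages and dendritic cells, and fibroblasts and epithelia can make several of the others.

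Libraries held 11894395 to 14480331 counts in Eda-/- and 13670343 to 15700899 in wild-type glands, and 13178 genes were tested. Eda itself had 2, 0 and 0 counts in the Eda-/- libraries, against 41, 48 and 42 in wild-type. The gland was recognisable in every library: Obp1a, an odorant-binding protein gene of the gland, had 1011896 or more counts, and Aqp5, the acinar water channel gene, 1089 or more. Genes passed when edgeR's quasi-likelihood test gave a Benjamini-Hochberg adjusted p under 0.05. By this rule 13.1% of tested genes passed in either direction, 6.90% lower and 6.21% higher in Eda-/- glands. With library totals in place of TMM scaling the median gene lay at -0.28 (log2), and 246 genes were higher and 4365 lower, against 819 and 909 with TMM. Wild-type 3 stood above the other wild-type libraries in interferon response and macrophage genes. The summed CPM (TMM-scaled counts relative to library size) of 24 interferon response genes was 120, 134 and 92.9 in Eda-/- 1, 2 and 3, against 111, 199 and 343 in wild-type 1, 2 and 3. For B and plasma cell markers (36.7, 131 and 31.1 CPM in wild-type 1, 2 and 3) and neutrophil markers (1.18, 1.35 and 1.09 CPM) wild-type 3 was the lowest wild-type library. The fold changes of the C1q chains, C4b and C3 are given with and without it; group means and SDs include it.

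Of the 9 genes, 6 were lower in Eda-/- glands: C1qa, C1qc, C1s1, C4b, C2 and C3, where 6.90% of all tested genes were lower. C1qb and C1ra did not pass, and Cfb had too few counts to be tested. All 8 tested members cleared the count filter in each of the 6 libraries, and their median log2 fold change was -1.27, beside 0.003 over all tested genes, and -0.96 without wild-type 3. In all 8 tested members every Eda-/- library lay below every wild-type library, which held for 16.2% of tested genes. The same was true of Cfb, which was not tested. The members were chosen with these results known, so the counts describe them and test nothing. In whole-gland RNA, fewer cells of a type and less RNA per cell cannot be told apart.

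**Figure D1:**
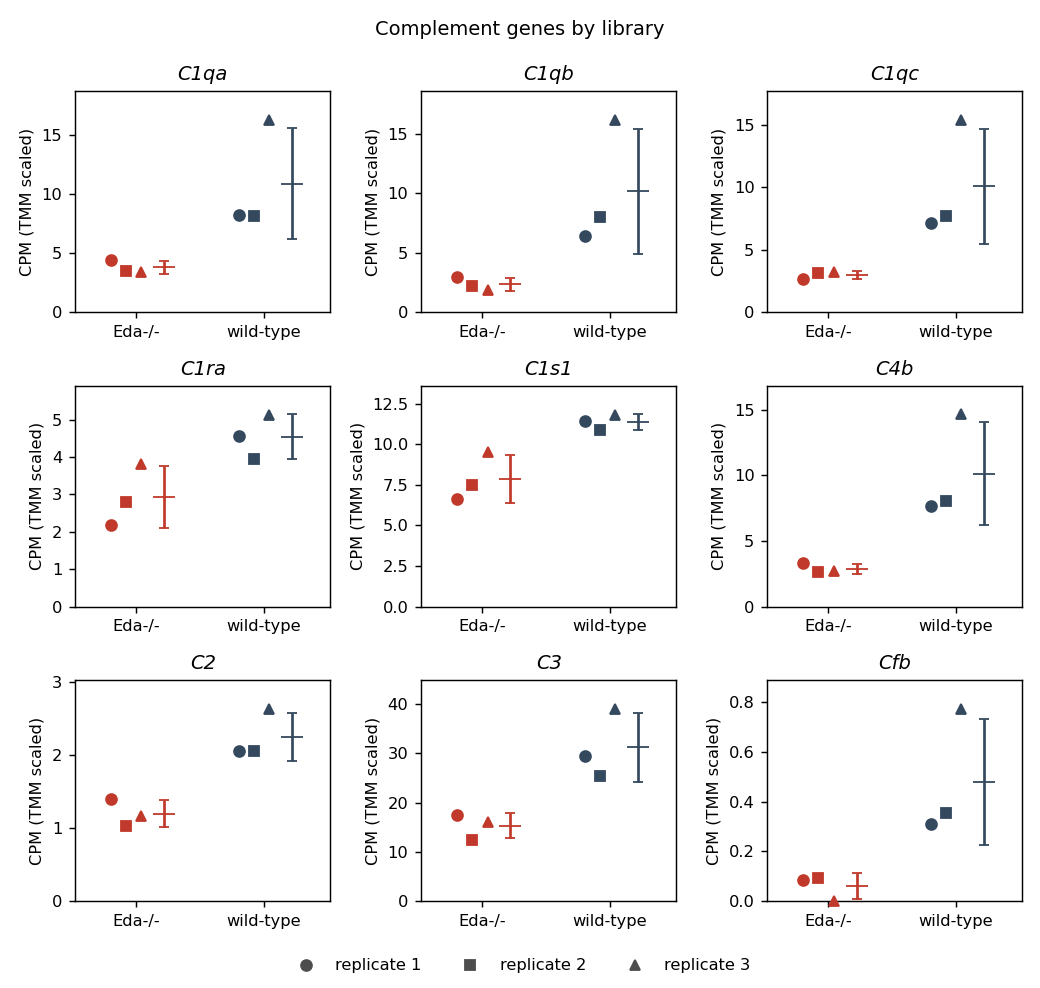
TMM-scaled CPM of each complement gene in 3 Eda-/- and 3 wild-type libraries; symbols mark replicates, and the bar at the side of each group is the mean with SD. Every Eda-/- point lies below every wild-type point, and wild-type 3 is the highest library in each panel.

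The promoters of C1qb, C1qc and C3 are shown because these genes had large decreases and a RefSeq sequence (GRCm38.p6). Of the 9 genes 5 had one, these and C1ra and C1s1; each window runs 5′ to 3′ on the gene's strand, 250 bases before the start to 50 after it. Capitals mark matches, on either strand, to NF-kB letters (GGG, any 5 bases, CC), an interferon-stimulated response element core (GAAA, any 2 bases, GAAA), C/EBP letters (TTGCNNAA) or PU.1 letters (GAGGAA, an ETS factor of macrophages); matches that overlap are run together. The C1qb window is chr4:136886151-136886450, the C1qc window chr4:136892865-136893164 and the C3 window chr17:57228087-57228386, all on the minus strand.
C1qb: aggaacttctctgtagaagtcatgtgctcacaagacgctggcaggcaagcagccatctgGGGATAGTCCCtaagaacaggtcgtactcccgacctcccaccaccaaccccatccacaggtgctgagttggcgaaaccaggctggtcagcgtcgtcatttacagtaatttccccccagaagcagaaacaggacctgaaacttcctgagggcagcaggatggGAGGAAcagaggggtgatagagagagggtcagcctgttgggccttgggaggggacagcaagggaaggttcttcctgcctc
C1qc: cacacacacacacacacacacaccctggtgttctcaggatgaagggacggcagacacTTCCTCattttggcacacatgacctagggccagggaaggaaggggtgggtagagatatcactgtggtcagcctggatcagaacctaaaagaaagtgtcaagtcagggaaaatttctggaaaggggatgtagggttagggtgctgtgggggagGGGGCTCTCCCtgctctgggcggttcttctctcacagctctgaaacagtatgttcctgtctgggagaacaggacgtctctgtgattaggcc
C3: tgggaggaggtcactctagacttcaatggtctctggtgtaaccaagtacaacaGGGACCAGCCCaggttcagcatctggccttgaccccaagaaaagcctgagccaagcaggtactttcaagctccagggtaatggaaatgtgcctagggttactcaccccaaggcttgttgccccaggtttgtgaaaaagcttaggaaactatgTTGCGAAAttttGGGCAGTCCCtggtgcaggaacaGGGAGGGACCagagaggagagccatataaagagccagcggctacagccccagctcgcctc
Both C1q windows hold NF-kB and PU.1 letters, and the C3 window holds NF-kB and C/EBP letters. The C1ra window, not shown, holds C/EBP and PU.1 letters. Both C1s1 windows, at different starts and not shown, hold NF-kB letters, and the upstream window also holds C/EBP letters. Among 32851 promoter windows of that length, 50.8% hold the NF-kB letters, 28.3% the PU.1 letters and 10.8% the C/EBP letters. The interferon core is in none of the windows of the 5 genes and in 3.44% of all windows. A match is only a string of letters and does not show that a factor binds.

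The C1q chains had the largest decreases among the tested members, together with C4b. C1qa, C1qc and C1qb encode the A, C and B chains that assemble into the recognition molecule, and they lie side by side within 18.7 kilobases on the minus strand of chromosome 4 (GRCm38; C1qa at 136895917 to 136898803). C1qa had 4.45, 3.47 and 3.43 CPM in Eda-/- 1, 2 and 3, against 8.23, 8.12 and 16.3 CPM in wild-type 1, 2 and 3. The fall was -1.52 on the log2 scale (SE 0.35, edgeR adjusted p = 0.0371). C1qc had 2.62, 3.09 and 3.20 CPM in Eda-/- glands, against 7.11, 7.70 and 15.4 CPM in wild-type (-1.75, SE 0.37, edgeR adjusted p = 0.0292). For both, wild-type 3 held about as much as the other wild-type libraries together, and the Eda-/- libraries lay close to each other. C1qb had 2.97, 2.16 and 1.87 CPM in Eda-/- glands, against 6.36, 8.0 and 16.2 CPM in wild-type. Its value was the most negative of the tested members and did not pass (-2.12, SE 0.50, edgeR adjusted p = 0.0545).

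Wild-type 3 set much of the spread of the C1q chains. Without it the values were -1.10 for C1qa, -1.31 for C1qc and -1.62 for C1qb, and each passed (edgeR adjusted p = 0.00051, 0.000163 and 0.000107). C1qb also passed without wild-type 1 (0.00845), and did not without wild-type 2 (0.0749) or Eda-/- 1, 2 or 3 (0.134, 0.175 and 0.182). With an Eda-/- library left out, C1qa and C1qc no longer passed: the edgeR adjusted p was 0.110, 0.149 and 0.152 for C1qa and 0.130, 0.122 and 0.114 for C1qc without Eda-/- 1, 2 and 3. C1qb passed in DESeq2 (adjusted p = 0.000352) and limma-voom (adjusted p = 0.0145).

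Per kilobase of exon the chains were not equally abundant. RPKM here is CPM per kilobase of merged annotated exons. C1qa averaged 3.64 ± 0.56 RPKM in Eda-/- and 10.5 ± 4.51 RPKM in wild-type glands (SD, n = 3 each). C1qb averaged 2.14 ± 0.52 RPKM in Eda-/- and 9.35 ± 4.83 RPKM in wild-type glands, and C1qc 1.54 ± 0.16 RPKM in Eda-/- and 5.22 ± 2.40 RPKM in wild-type glands. C1qa made up 51.2%, 48.2% and 49.4% of the C1q RPKM in Eda-/- 1, 2 and 3, against 45.4%, 40.8% and 40.7% in wild-type 1, 2 and 3. C1qb made up 32.6%, 28.6% and 25.8% in Eda-/- glands, against 33.5%, 38.4% and 38.6% in wild-type. The share of C1qa was higher, and that of C1qb lower, in every Eda-/- library than in every wild-type library, by little for C1qb in Eda-/- 1. These shares were not tested.

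The proteases of the C1 complex moved less. C1ra and C1s1 encode C1r and C1s and lie 6.90 kilobases apart on chromosome 6, on opposite strands. C1s1 had 6.64, 7.50 and 9.51 CPM in Eda-/- glands, against 11.4, 10.9 and 11.8 CPM in wild-type (-0.52, SE 0.14, edgeR adjusted p = 0.0196). The wild-type libraries were nearly equal, and Eda-/- 3 came closest to them. C1ra had 2.18, 2.81 and 3.82 CPM in Eda-/- glands, against 4.55, 3.94 and 5.14 CPM in wild-type, and did not pass (-0.61, SE 0.22, edgeR adjusted p = 0.0748). Without Eda-/- 3, the highest mutant library for both, C1ra passed (-0.86, edgeR adjusted p = 0.0373). C1s1 did not pass without Eda-/- 1 (0.0814), Eda-/- 2 (0.0621), wild-type 1 (0.0506) or wild-type 3 (0.0591), nor in DESeq2 (adjusted p = 0.0501). The log2 ratio of summed C1q CPM to C1ra plus C1s1 CPM was 0.19, -0.24 and -0.65 in Eda-/- 1, 2 and 3, against 0.44, 0.68 and 1.5 in wild-type 1, 2 and 3. The groups did not overlap, and the difference was not tested.

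Near-identical copies limit these values. Of the 31-base words in C1ra transcripts 59.6% recur elsewhere, mostly in C1rb, and of those in C1s1 33.5%, in C1s2. The copies were nearly silent, with 0, 1 and 0 counts of C1rb in Eda-/- and 2, 0 and 0 in wild-type glands. C1s2 had 4, 0 and 2 counts in Eda-/- glands and 4, 1 and 1 in wild-type. With the copies added in, C1ra stood at -0.61 (edgeR adjusted p = 0.0737) and C1s1 at -0.51 (edgeR adjusted p = 0.0204). The sources used here do not say how reads mapping to several places were handled. The antisense gene Gm16567 overlaps 18.4% of the C1s1 exon bases and had at most 1 count in any library.

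C4b, the substrate of C1s, fell about as far as C1q. C4b (GRCm38 chromosome 17, 34728380 to 34743882) had 3.32, 2.62 and 2.73 CPM in Eda-/- glands, against 7.67, 8.06 and 14.6 CPM in wild-type (-1.80, SE 0.29, edgeR adjusted p = 0.00531). Here too wild-type 3 was far above the other wild-type libraries, and without it the value was -1.43 (edgeR adjusted p = 5.73e-05). C4b passed in all 14 alternatives tried. Of its 31-base words 48.3% recur in C4a, its nearby copy. C4a had 7, 12 and 10 counts in Eda-/- glands, against 9, 6 and 7 in wild-type, too few to be tested. Summed over libraries that is 29 counts in Eda-/- and 22 in wild-type glands, and the normalised counts had a ratio of 1.83 (95% exact binomial bounds 1.02 and 3.35, counting error only). The summed counts of both genes still fell (-1.50, SE 0.26, edgeR adjusted p = 0.0065).

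C3, where the pathways meet, fell to 0.49 of its mean wild-type CPM. C3 (chromosome 17, 57203970 to 57228136) had 17.4, 12.5 and 16.1 CPM in Eda-/- glands, against 29.4, 25.3 and 38.9 CPM in wild-type (-1.02, SE 0.18, edgeR adjusted p = 0.00914). Its counts were the highest of the 9 genes, from 133 to 206 in Eda-/- and from 431 to 606 in wild-type libraries. It passed in all 14 alternatives, at -0.82 without wild-type 3 and with an adjusted p of 0.0469 without Eda-/- 3, the nearest to the threshold. C3 has 0% of its words in other genes and overlaps no other annotated exon.

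C2 and Cfb, neighbours on chromosome 17 and relatives in sequence family, serve the classical and the alternative pathway. C2 had 1.40, 1.03 and 1.17 CPM in Eda-/- glands, against 2.06, 2.06 and 2.63 CPM in wild-type (-0.90, SE 0.27, edgeR adjusted p = 0.0385). The call was not firm: it was lost with any 1 library left out (edgeR adjusted p = 0.0569, 0.113 and 0.107 without Eda-/- 1, 2 and 3, and 0.0595, 0.0736 and 0.116 without wild-type 1, 2 and 3). It was also lost in DESeq2 (adjusted p = 0.154) and limma-voom (adjusted p = 0.052). Cfb had 1, 1 and 0 counts in Eda-/- 1, 2 and 3, against 5, 6 and 12 in wild-type 1, 2 and 3, and did not reach the count filter. Over the groups that is 2 counts in Eda-/- and 23 in wild-type glands, and the normalised counts had a ratio of 0.121 (95% exact binomial bounds 0.0138 and 0.49, counting error only). With no filter beyond 1 count Cfb passed (-2.87, SE 0.89, edgeR adjusted p = 0.0244), and no other fit held it. In that fit every tested member but C2 (0.0538) had a smaller edgeR adjusted p than with the filter. For C3 and C4b it was 6.24e-21 and 1.02e-22, against 0.00914 and 0.00531 with the filter, at nearly the same fold changes.

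Exons shared with another gene limit what the counts of Cfb and C2 say. The annotated gene Gm20547 runs from C2 through Cfb on the same strand and covers 79.5% of the Cfb exon bases and 42.8% of those of C2. All 3902 exon bases of Gm20547 lie in exons of these genes, and it had 0 counts in every library. Reads in the shared exons were thus not credited to Gm20547. If they were dropped, the counts of Cfb and C2 are too low. The sources used here do not give the authors' treatment of such reads. Levels are therefore also given per kilobase of exon free of other genes, 579 of 2825 bases for Cfb and 2056 of 3872 for C2. On that scale Cfb averaged 0.104 ± 0.09 RPKM in Eda-/- and 0.826 ± 0.44 RPKM in wild-type glands, and C2 0.583 ± 0.09 RPKM in Eda-/- and 1.09 ± 0.16 RPKM in wild-type glands (SD, n = 3 each).

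**Figure D2:**
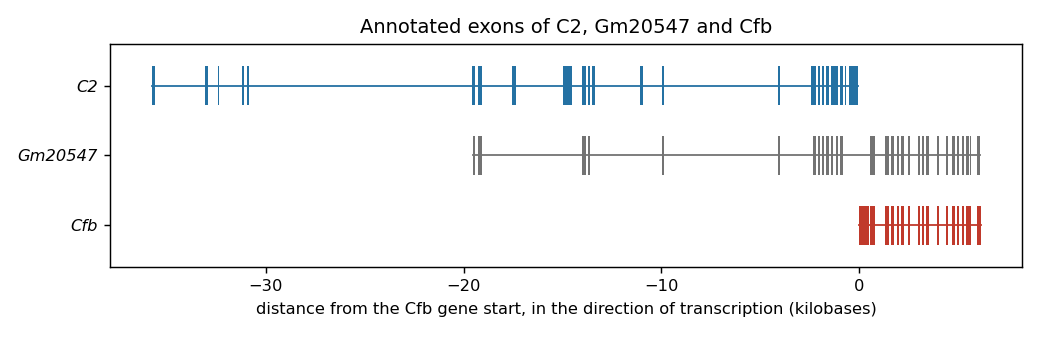
Annotated exons (blocks) of C2, Gm20547 and Cfb by distance from the Cfb gene start in kilobases, in the direction of transcription. Each Gm20547 exon sits over an exon of C2 or Cfb, and 20.5% of the Cfb exon bases, mostly at its start, are free of it.

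Set side by side, 5 of the 7 classical genes were lower in Eda-/- glands, where 6.90% of all tested genes were lower. That count was 1 without Eda-/- 1 or 2, 3 without Eda-/- 3 and 4 without any 1 wild-type library. Cfb, the alternative gene among the 9, had too few counts to be tested, and 79.5% of its exon bases are shared with Gm20547. Of the other alternative genes, Cfd was higher (1.43), Cfp did not pass (-0.67), and their summed CPM overlapped, at 3.44 ± 1.11 in Eda-/- and 3.45 ± 1.31 in wild-type glands (SD, n = 3 each). The classical genes C1qa, C1qb, C1qc, C1ra, C1s1, C2 and C4b together held 23.6, 22.7 and 25.7 CPM in Eda-/- glands, against 47.4, 48.8 and 82.1 CPM in wild-type. Cfb held 0.087, 0.094 and 0 CPM in Eda-/- glands, against 0.312, 0.353 and 0.77 CPM in wild-type. The log2 ratio of the classical sum to C3 was 0.44, 0.86 and 0.68 in Eda-/- 1, 2 and 3, against 0.69, 0.94 and 1.08 in wild-type 1, 2 and 3, and the groups overlapped. With a pseudocount of 0.1 CPM, the log2 ratio of the classical sum to Cfb was 6.98, 6.88 and 8.01 in Eda-/- glands, against 6.85, 6.75 and 6.56 in wild-type. That ratio was higher in each Eda-/- library, with 0 or 1 Cfb count behind each. The pseudocount was larger than the Cfb CPM of every Eda-/- library, so it largely set those ratios. With the same pseudocount, the log2 ratio of C3 to Cfb was 6.54, 6.02 and 7.34 in Eda-/- 1, 2 and 3. In wild-type 1, 2 and 3 it was 6.16, 5.81 and 5.49, and the groups overlapped. Whether the arms changed by different amounts was not tested.

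The order of levels per kilobase of all exon bases differed between genotypes, mostly among genes whose SDs overlapped. In wild-type glands it ran C1qa, C1qb, C3, C1qc, C1s1, C4b, C1ra, C2 and Cfb. C1qa, C1qb, C3 and C1qc, at 10.5 to 5.22 RPKM, overlapped within 1 SD of their neighbours, as did C1qc and C1s1. C1s1 averaged 3.63 ± 0.15 RPKM, C4b 1.78 ± 0.69, C1ra 1.52 ± 0.20, C2 0.581 ± 0.09 and Cfb 0.169 ± 0.09 RPKM in wild-type glands, and of these C4b and C1ra overlapped. In Eda-/- glands the order was C1qa, C3, C1s1, C1qb, C1qc, C1ra, C4b, C2 and Cfb. Each of C1qa, C3 (2.97 ± 0.49 RPKM), C1s1 (2.52 ± 0.47 RPKM), C1qb and C1qc overlapped within 1 SD of the next, and below C1qc no neighbours did on this scale. Per kilobase of exon free of other genes, C2 (0.583 ± 0.09 RPKM) lay above C4b and overlapped it in Eda-/- glands, and C1s1 (3.09 ± 0.58 RPKM) lay above C3 and overlapped it. C4b came to 0.508 ± 0.07 RPKM in Eda-/- glands, below C1ra at 0.986 ± 0.28.

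Of 44 further genes reported by role 18 were tested, and 4 were lower and 2 higher in Eda-/- glands, with a median log2 fold change of -0.24, beside 6.90% lower and 6.21% higher among all tested genes. Among soluble regulators Serping1, the C1 inhibitor that blocks C1r and C1s, fell. Serping1 had 5.41, 3.84 and 5.15 CPM in Eda-/- glands, against 8.92, 7.88 and 8.92 CPM in wild-type (-0.83, SE 0.15, edgeR adjusted p = 0.00221). Unlike C1q and C4b, Serping1 was not high in wild-type 3. Clu, the clusterin gene, a brake on pore assembly, did not pass (-0.63, adjusted p = 0.275), nor did Vtn (0.03). C4bp, which encodes the C4b-binding protein, had 0 counts in every Eda-/- library, against 3, 3 and 2 in wild-type.

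Among receptors and the terminal pathway, C3ar1, Itgb2 and C7 fell. C3ar1 encodes the receptor for the C3a fragment and had 1.31, 1.12 and 1.25 CPM in Eda-/- glands, against 2.49, 3.0 and 4.81 CPM in wild-type (-1.47, SE 0.29, edgeR adjusted p = 0.00354), and without wild-type 3 the value was -1.15. Itgb2, the beta chain shared by the complement receptors of leukocytes, stood at -1.29 (SE 0.26, edgeR adjusted p = 0.0041). C7, a component of the membrane pore, had 9.52, 9.93 and 9.36 CPM in Eda-/- glands, against 17.5, 15.3 and 14.1 CPM in wild-type (-0.70, SE 0.11, edgeR adjusted p = 0.000748). For C7, wild-type 3 was the lowest wild-type library. Serping1, C3ar1, Itgb2 and C7 passed in all 14 alternatives. The partner chains Itgam (-0.33, adjusted p = 0.476) and Itgax (-2.02, adjusted p = 0.0992) did not pass. Itgax passed without wild-type 1 (-2.28, adjusted p = 0.0403) or wild-type 3 (-1.28, adjusted p = 0.00714), and 68.7% of the Itgam exon bases are shared with Gm49368 on the same strand. C5ar1, the C5a receptor gene, had 6, 3 and 4 counts in Eda-/- glands, against 9, 14 and 21 in wild-type, too few to be tested. The pore genes C8g (0.34, adjusted p = 0.526), C9 and Hc gave no call, and C9 and Hc had at most 11 counts in any library.

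Cfd and Cd59a were the complement genes that rose. Cfd encodes factor D, the protease that cuts factor B, and is made in quantity by fat cells. Cfd had 25, 19 and 14 counts (2.18, 1.78 and 1.09 CPM) in Eda-/- glands, against 11, 16 and 3 counts (0.686, 0.941 and 0.193 CPM) in wild-type (1.43, SE 0.43, edgeR adjusted p = 0.0418). The call was lost without Eda-/- 1 (0.166), Eda-/- 2 (0.113), wild-type 1 (0.0786) or wild-type 3 (0.103), and in DESeq2 (0.0641). It was also lost in limma-voom, with library totals in place of TMM, and without robust estimation. Cfd passed in 5 of the 13 alternatives that could test it. Of 8 fat cell markers 3 were tested, and Fabp4 (1.98) and Car3 (1.93) were higher while Lpl (-1.13, adjusted p = 0.292) did not pass; these were named after their values were seen. The sum of the 8 markers, mostly Lpl, overlapped at 12.2, 14.9 and 10.8 CPM in Eda-/- glands and 10.8, 11.1 and 25.7 CPM in wild-type. Adipoq, the defining marker, had 7, 3 and 7 counts in Eda-/- glands, against 2, 5 and 0 in wild-type. The part of fat cells in the Cfd value was not tested. Cd59a, which blocks pore assembly on host cells, had 5.15, 4.69 and 5.07 CPM in Eda-/- glands, against 3.24, 3.71 and 3.27 CPM in wild-type (0.54, SE 0.17, edgeR adjusted p = 0.0465). It lost its call with any 1 library left out, at adjusted p values of 0.106, 0.0708 and 0.122 without Eda-/- 1, 2 and 3 and 0.111, 0.0711 and 0.0933 without wild-type 1, 2 and 3. With library totals in place of TMM it stood at 0.26 and did not pass (0.239).

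The remaining genes did not pass or were hardly present. Cfp, properdin, which stabilises the alternative pathway enzyme, stood at -0.67 (adjusted p = 0.437) with wild-type 3 far above the others. The membrane regulators Cr1l (-0.17), Cd46 (-0.32) and Susd4 (0.47) did not pass. C1rl, a relative of C1r, was well expressed at 40.5, 33.3 and 35.3 CPM in Eda-/- glands, against 31.7, 29.1 and 29.9 CPM in wild-type, and did not pass (0.27, adjusted p = 0.064). It passed without Eda-/- 2 (0.33, adjusted p = 0.0454), and with library totals its value was -0.01. No lectin pathway gene reached the filter with all 6 libraries. Masp2, a lectin pathway protease gene, had 22, 23 and 6 counts in Eda-/- glands, against 4, 4 and 5 in wild-type, a ratio of normalised counts of 5.46 (95% exact binomial bounds 2.93 and 10.9, counting error only). It could be tested in 5 alternatives, and with no filter beyond 1 count it stood at 2.43 (edgeR adjusted p = 1.09e-05). That is the fit in which C3 and C4b also had far smaller adjusted p values than with the filter. Without Eda-/- 3 or any 1 wild-type library it stood at 2.35 to 2.89 (edgeR adjusted p at most 0.0458). In those fits Masp2 reached the filter only through Eda-/- 1 and 2, where it is high, so they are no support for its rise. Of its exon bases 54.9% lie opposite exons of Tardbp. The library kit kept strand, but the sources used here do not say whether the counting used it.

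**Figure D3:**
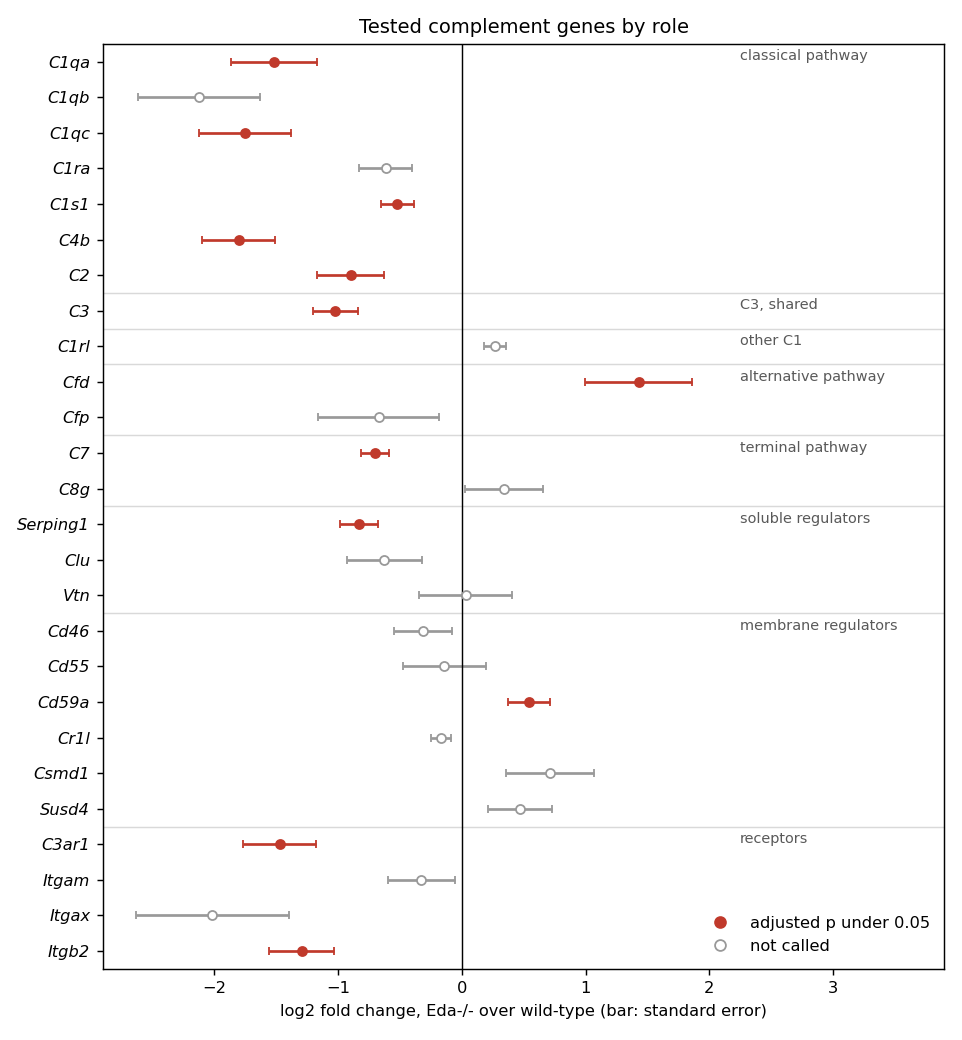
Log2 fold changes, Eda-/- over wild-type, with standard errors for 26 tested complement genes, grouped by role; filled points have an adjusted p under 0.05. The filled points on the right, above 0, are Cfd and Cd59a.

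Markers of cells known to make complement were followed beside it. Of 16 macrophage genes 6 were lower and none higher, where 6.90% of all tested genes were lower; the other 10 did not pass. All 16 values were below 0, with a median of -1.23, and -0.91 without wild-type 3. Their summed CPM was 68.9, 55.3 and 54.7 in Eda-/- glands, against 111, 120 and 211 in wild-type, with wild-type 3 again far above the rest. Csf1r fell by 1.01 on the log2 scale (adjusted p = 0.00591), while Adgre1 (-1.53, adjusted p = 0.0714) and Cd68 (-1.03, adjusted p = 0.161) did not pass. The number of lower macrophage genes was 4, 5 and 3 without Eda-/- 1, 2 and 3 and 8 without wild-type 1, 2 or 3. The log2 ratio of summed C1q CPM to this macrophage sum was -2.78, -2.67 and -2.69 in Eda-/- 1, 2 and 3, against -2.36, -2.34 and -2.14 in wild-type 1, 2 and 3. C1q was thus lower in relation to the macrophage sum in each Eda-/- library, by 0.43 on average (log2), and the part of macrophages in the C1q values was not tested.

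Fibroblast markers shifted less. Of 12 fibroblast genes 4 were lower, beside the same 6.90%, and none higher, with a median of -0.36. Their summed CPM was 303, 305 and 298 in Eda-/- glands, against 446, 427 and 452 in wild-type, and wild-type 3 did not stand out. Of the defining genes Col1a2 fell (-0.62, adjusted p = 0.0196), and Col1a1 (-0.31) and Col3a1 (-0.29) did not pass. The number of lower fibroblast genes was 3 without any 1 Eda-/- library and 5, 4 and 4 without wild-type 1, 2 and 3. In relation to this sum C1ra plus C1s1 differed little: the log2 ratio was -5.11, -4.89 and -4.48 in Eda-/- 1, 2 and 3, against -4.81, -4.85 and -4.74 in wild-type 1, 2 and 3, and the groups overlapped. The log2 ratio of C3 to the fibroblast sum was -4.13, -4.61 and -4.21 in Eda-/- glands, against -3.93, -4.07 and -3.54 in wild-type, and that of C4b averaged -6.72 ± 0.18 in Eda-/- and -5.51 ± 0.49 in wild-type glands (SD, n = 3 each). Both were lower in each Eda-/- library, and the part of fibroblasts in them was not tested. Set against the macrophage sum, the log2 ratio of C3 was -1.99, -2.15 and -1.77 in Eda-/- 1, 2 and 3. In wild-type 1, 2 and 3 it was -1.92, -2.25 and -2.44, and the groups overlapped. The part of macrophages in the C3 value was not tested.

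**Figure D4:**
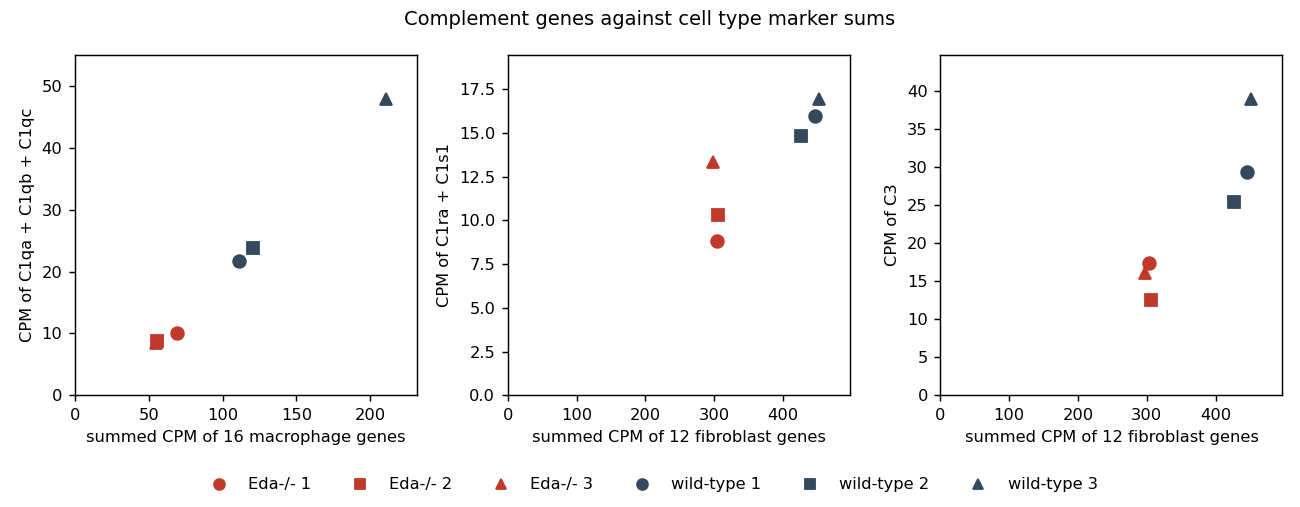
CPM of C1q, of C1ra plus C1s1 and of C3 (vertical axes) against the summed CPM of macrophage or fibroblast markers (horizontal axes), 1 point per library; axes start at 0. Eda-/- libraries lie at 54.7 to 68.9 CPM of macrophage markers, and Eda-/- 2 and 3 nearly coincide there.

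Other cell types and induced genes gave further values beside these results. Of 8 hepatocyte markers Ttr was tested and did not pass (-0.53), and their sum was 2.01, 1.5 and 1.09 CPM in Eda-/- glands, against 2.18, 2.0 and 2.57 CPM in wild-type. The defining marker Alb had 0 counts in each Eda-/- library and 0, 2 and 1 in wild-type. Neutrophil markers summed to at most 1.35 CPM in any library, with Cxcr2 and Retnlg at 0 throughout. T and NK cell markers summed to 0.698, 0.843 and 0.546 CPM in Eda-/- glands, against 1.56, 1.18 and 2.12 CPM in wild-type. Of 12 acinar and luminal genes 2 were lower and 2 higher, and their sum, mostly Obp1a and Mucl2, was 224655, 192514 and 216184 CPM in Eda-/- glands, against 139572, 135761 and 122326 CPM in wild-type. The sum was higher in each Eda-/- library; Mucl2, named after its value was seen, stood at 1.49 (adjusted p = 0.000195). Of 8 myoepithelial and basal genes 4 were lower, and of 8 endothelial genes 2 were lower and 1 higher. B and plasma cell markers overlapped between groups, at 127 to 319 CPM in Eda-/- and 31.1 to 131 CPM in wild-type glands. All 3 tested markers were above 0 with a median of 1.65; edgeR passed 0 of them, with 1 (Igkc) at an unadjusted p under 0.05, DESeq2 passed 1 as higher and limma-voom 3. Of 22 tested interferon response genes edgeR passed 0, with 9 lower at an unadjusted p under 0.05, DESeq2 passed 10 and limma-voom 0. The edgeR count rested on the libraries and settings used: it was 14 lower without wild-type 1, 1 without wild-type 2, 5 without wild-type 3 and 0 without any 1 Eda-/- library, and 11 without robust estimation. Of 12 genes induced by NF-kB in the acute phase 8 were tested and 5 were lower (median -0.98, and -0.75 without wild-type 3), and their sum was 43.8, 47.9 and 36.5 CPM in Eda-/- glands, against 69.3, 75 and 113 CPM in wild-type. Among all tested genes 6.90% were lower and 6.21% higher in edgeR with all libraries. At an unadjusted p under 0.05 in edgeR 14.3% were lower, and 27.5% passed in either direction. DESeq2 called 695 of 13178 genes lower and 548 higher, and limma-voom 780 and 703. EdgeR called 901 lower without robust estimation, and 834, 676 and 669 without wild-type 1, 2 and 3. The part of these signals in the complement values was not tested.

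Genes with profiles most like the C1q chains included macrophage genes. The likeness is the root mean square difference of log2 CPM, centred per gene, over the 6 libraries, searched in 11587 protein-coding genes. Nearest to the mean C1q profile were Lyz2 (0.0741) and Ctss (0.0975), of the macrophage list, then Hspa1a (0.154), Tnfaip3 (0.157) and Fcrls (0.181). Nearest to C3 were Cyth4 (0.0645), Isyna1 (0.0838), Aldh1a3 (0.103), Cx3cl1 (0.107) and Camk1d (0.107), none of them from the macrophage or fibroblast lists. These are descriptions over 6 libraries that share 1 contrast.

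The loci differed in how many neighbours changed. Within 1 Mb of the C1q genes 7 of 23 tested neighbours passed (30.4%), 6 lower and 1 higher, and within 1 Mb of Cfb, in the major histocompatibility region, 27 of 84 (32.1%), 12 lower and 15 higher. Around C3 it was 3 of 29 (10.3%), and around C1ra and C1s1 1 of 35 (2.86%), beside 13.1% of all tested genes. The bearing of these neighbours on the members was not tested.

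**Figure D5:**
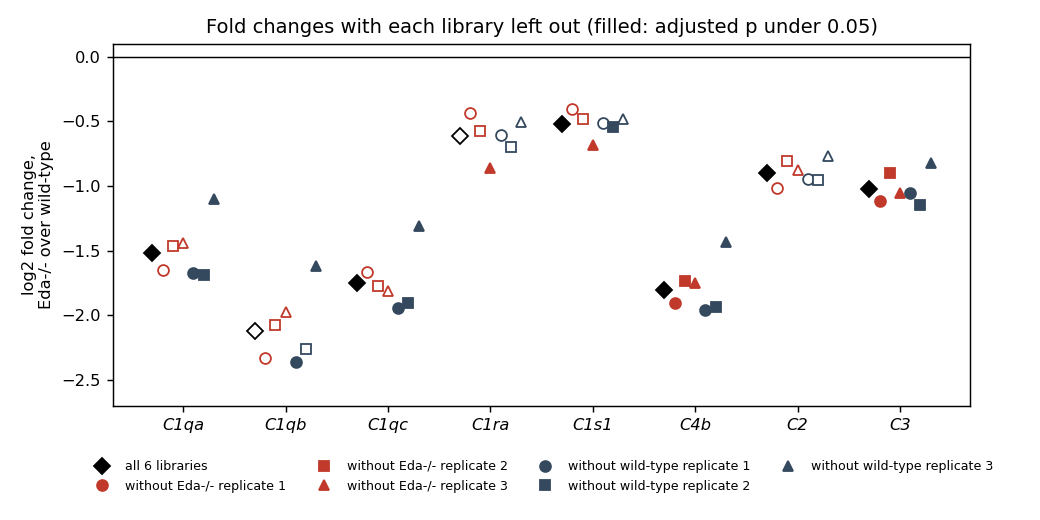
Log2 fold changes, Eda-/- over wild-type, of the 8 tested members with all 6 libraries (diamonds) and with each library left out; filled symbols have an adjusted p under 0.05. C3 and C4b stay filled throughout, and the C1q chains and C4b move nearest to 0 without wild-type 3.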

How the data were processed

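Raw read counts per gene were measured in 6 libraries and deposited as 1 table by the authors, with no pooling. Per the submitters' processing notes the tools included Trimmomatic, STAR and featureCounts, with build GRCm38.p5; the sources used here do not give versions, annotation release, strand setting or the treatment of shared reads. Columns were matched to samples by title. Symbols, exons and positions came from GENCODE M21 (GRCm38) by gene identifier; 50462 matched and 224 did not. Promoter letters came from RefSeq (GRCm38.p6).

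The test was edgeR's (4.0.16, R 4.3.3), with filterByExpr (minimum count 10), TMM scaling, genotype alone, robust quasi-likelihood fits, two-sided tests and Benjamini-Hochberg adjustment over 13178 genes. Each SE was obtained by dividing the size of the log2 fold change by the root of F. Alternatives were DESeq2 1.42.0, limma-voom (limma 3.58.1), other scalings and filters, fits that were not robust, a replicate block and each library left out. P-values measure the spread between these libraries, called biological replicates by the submitters. Sums with near-identical copies were added after the data were seen. The script was tested on simulated counts. No pair of replicates agreed within sampling noise (chi-square per degree of freedom 9.08 to 28.9). Intervals cover counting error only and leave out differences between mice, as counts were summed over each group. Reads carry no molecular identifiers. The members and lists were chosen with earlier results of these data known. 1 other complement gene is not reported here. Named genes were the members, other complement genes that passed, up to 3 more per list by mean CPM, the 5 nearest profiles, and the first 3 markers of a list.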

Additional observations from a re-analysis of the deposited data

How the results depend on the processing

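C3 and C4b passed in all 14 alternatives. No log2 fold change of a tested member changed sign in any alternative. The number of the 9 genes called lower was 6, and 2 to 5 with 1 library left out. These were C3 and C4b without Eda-/- 1 or 2, with C1ra and C1s1 added without Eda-/- 3; without wild-type 1 or 3 they were the C1q chains, C4b and C3, and without wild-type 2 C1qa, C1qc, C1s1, C4b and C3. With library totals in place of TMM 4611 genes passed, against 1728. Deviations from the group mean had correlations of -0.0355, 0.0211 and -0.0937 between same-numbered libraries, and of -0.0484 to 0.0773 between the others. With 3 libraries per group these values cannot tell whether the numbers pair the samples. With a replicate block 6 of the 9 genes were lower, C1qb (edgeR adjusted p = 0.0392) among them and C2 (0.0518) not, and 1608 genes passed. Of the single-gene values under an alternative, 84 kept direction and side of the threshold, 10 passed only under the alternative, 21 no longer passed and none reversed. The cause of these changes was not tested. Low counts limit Cfb, C4a and Masp2, which had too few to be tested with all libraries and the usual filter. Whether depth or sequence shared or overlapping with other genes set these counts was not tested. Under alternatives that could test them, Cfb passed as lower in 1 and C4a in none of 3. The Cfb call came from the fit with no filter beyond 1 count. There every tested member but C2 had a smaller adjusted p than with the filter. Masp2 passed as higher in 5, and the fits with a library left out held it only because it was high in Eda-/- 1 and 2.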
